A study of Homo sapiens with 4 samples.

Results

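The 10 core subunits of the SWI/SNF chromatin remodelling complexes were taken from the gene tables by symbol, as ARID1A, ARID1B, ARID2, SMARCA2, SMARCA4, SMARCB1, SMARCC1, SMARCC2, SMARCD1 and PBRM1. All 10 were found among the 15357 genes listed, and all 10 passed the filter on low counts. They were measured by RNA-seq in RKO, a human colon cancer cell line grown in medium with serum. The control group was 2 libraries of RKO cells stably infected with a lentivirus carrying control shRNA (titled vector in the labels), and the knockdown group was 2 libraries of RKO cells stably infected with a lentivirus carrying CHD7 shRNA-2 (titled shCHD7_2). Only this CHD7 shRNA was sequenced, so a loss of CHD7 and any other action of the hairpin cannot be told apart. The labels do not say whether the replicates were separate cultures, so the p-values measure the spread between these libraries, which may be technical.

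SWI/SNF complexes use ATP to slide or evict nucleosomes and thereby open promoters and enhancers. Each complex has 1 ATPase, SMARCA4 (BRG1) or SMARCA2 (BRM), built onto a scaffold of SMARCC, SMARCD and SMARCB1 proteins. Canonical BAF carries ARID1A or ARID1B, PBAF carries ARID2 and PBRM1, and non-canonical BAF carries neither type of ARID subunit and lacks SMARCB1. CHD7 is a remodeller of another family that is known to work with PBAF at enhancers, and several of these subunits, ARID1A foremost, are recurrently mutated in colorectal and other cancers.

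The libraries held between 15734679 and 16068650 estimated counts, and the core subunits had between 815 and 4525 counts in each library. CHD7 itself was at 8.05 and 8.50 FPKM (fragments scaled to gene length and to the depth of the library) in the control libraries and at 5.65 and 5.34 in the CHD7 shRNA-2 libraries. Its log2 fold change was -0.74 (SE 0.088, adjusted p = 4.2e-06 by edgeR). Of the epithelial markers looked for, KRT18, KRT8, EPCAM and CDX2 were above 1 FPKM in mean, while CDH1, CDH17, KRT20 and GPA33 were at or near 0 and KRT19 and VIL1 are not listed. Markers of fibroblasts and endothelium were at most 0.09 FPKM or not listed. Of the leukocyte markers, PTPRC and CD3E are not listed, LYZ was at most 0.34 FPKM, and CD68, a lysosomal protein also made outside leukocytes, was at 495.0 to 529.5 FPKM in the controls and 602.0 to 611.1 with CHD7 shRNA-2. The summed epithelial markers were at 75.3 to 81.2 FPKM in the controls and 81.7 to 90.3 with CHD7 shRNA-2; their part in the results was not tested.

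The core subunits changed by small amounts, about as much as a typical gene. Their median absolute log2 fold change was 0.14, against 0.13 for all genes tested. A gene was called when it differed at least 1.5-fold with an adjusted p below 0.05 in edgeR. None of the 10 was called after CHD7 knockdown, against 2.88% of the 11955 genes tested (1.51% higher and 1.37% lower). None called among 10 genes is near that share. Without the fold threshold, none of the 10 passed in edgeR either, against 11.5% of all genes (4.94% higher and 6.54% lower). At an unadjusted p under 0.05, 3 of the 10 passed in edgeR (SMARCD1, ARID1B and SMARCA2), against 25.4% of all genes. By the same measure 2 passed in DESeq2, against 16.8% of all genes, and 1 (SMARCC1) in limma on log2(FPKM + 1), against 26.1%. The smallest adjusted p in edgeR was 0.0958, that of SMARCD1. The log2 fold changes lay between -0.22 for ARID1B and 0.15 for SMARCC1.

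The data bound the size of a change only against the spread between these libraries, which may be technical. The 95% interval of every one of the 10 log2 fold changes lay inside a 1.5-fold change in either direction, as did 80.5% of the intervals of all genes tested. The lowest bound, that of ARID1B, was 0.755 times the control level, and the highest, that of SMARCC1, was 1.23 times it. In bulk RNA, fewer cells expressing a gene and less RNA per cell cannot be told apart. In 8 of the 10 the difference was negative, with a median log2 fold change of -0.12, where 49.9% of all genes tested were negative and their median was 0.00. The median of the 10 was -0.18 without control replicate 1, where that of all genes was 0.00. With library totals in place of TMM scaling it was -0.07, where that of all genes was 0.04. The groups did not overlap for 8 of the 10 (6 lower and 2 higher with CHD7 shRNA-2), which is to be read against 53.7% of all genes tested (27.3% lower and 26.4% higher). The FPKM of the 10 genes together came to 284.5 and 287.9 in the control libraries against 285.3 and 275.4 in those with CHD7 shRNA-2, so their ranges overlapped.

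The levels of the subunits differed far more between genes than between the groups. Over the 4 libraries, mean FPKM ran from 55.5 for SMARCB1 to 6.74 for ARID1A, a ratio of 8.24. In order, SMARCB1 was followed by SMARCA4 (51.3), SMARCC2 (42.0), SMARCC1 (40.4), SMARCD1 (39.5), SMARCA2 (22.8), ARID2 (8.56), ARID1B (8.26), PBRM1 (8.22) and ARID1A. The FPKM ranges fell into tiers that did not overlap, namely SMARCB1 with SMARCA4, then SMARCC2 with SMARCC1 and SMARCD1, then SMARCA2, then ARID2 with ARID1B and PBRM1, and last ARID1A. Within a tier, the ranges of neighbours over all 4 libraries overlapped. In the controls alone they did not for SMARCB1 and SMARCA4, for SMARCC2 and SMARCC1, or for SMARCC1 and SMARCD1. The median gene listed had 7.92 FPKM, so the ATPase, SMARCC, SMARCD and SMARCB1 mRNAs lay above at least 75.0% of listed genes, and those of ARID1A, ARID1B, ARID2 and PBRM1 lay near the middle, above 46.7% to 51.7% of them.

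**Figure D1:**
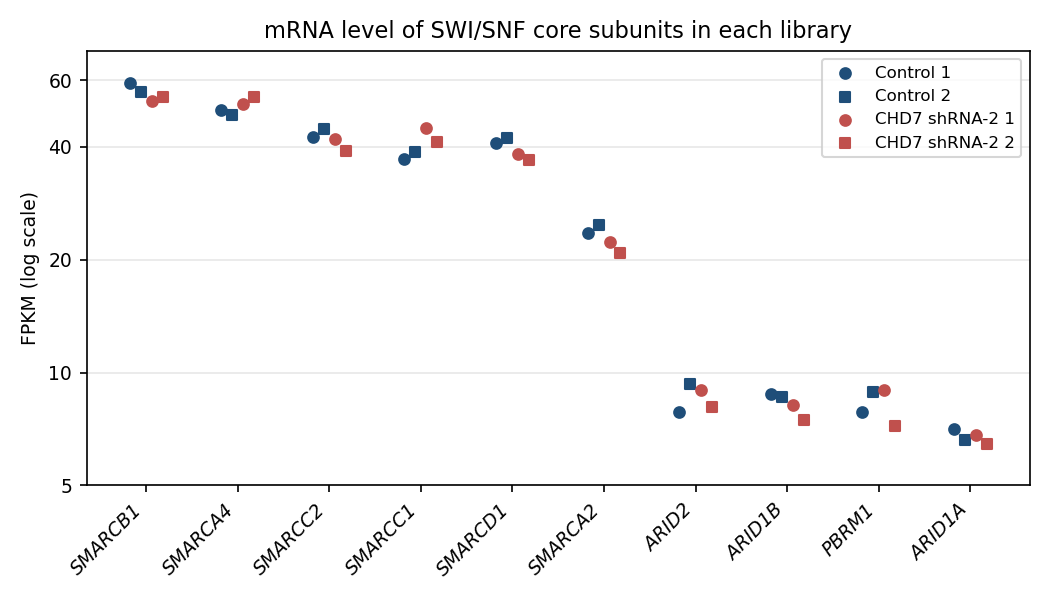
FPKM (log axis) of the 10 core subunits in the 2 control (blue) and 2 CHD7 shRNA-2 (red) libraries, where each point is 1 library. SMARCB1 and SMARCA4 lie at 48.6 to 59.1 FPKM in every library, and ARID1A, the lowest, at 6.43 to 7.09.

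SMARCA4 and SMARCA2 encode the alternative ATPases, whose bromodomain-bearing proteins drive nucleosome movement. SMARCA4 (chromosome 19, 10960825 to 11079426 in GRCh38, GENCODE 29) was at 50.2 and 48.6 FPKM in the control libraries and at 52.1 and 54.4 in the CHD7 shRNA-2 libraries. Both CHD7 shRNA-2 libraries were above both controls, and the log2 fold change was 0.07 (SE 0.073, adjusted p = 0.588 from edgeR). SMARCA2 (chromosome 9, 1980290 to 2193624) was at 23.5 and 24.7 FPKM in the controls and at 22.3 and 20.8 with CHD7 shRNA-2. Here both CHD7 shRNA-2 libraries were below both controls, and the log2 fold change was -0.18 (SE 0.082, adjusted p = 0.177 from edgeR). SMARCA4 thus made up 68.1% and 66.3% of the ATPase FPKM in the controls and 70.0% and 72.3% with CHD7 shRNA-2.

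SMARCC1 (BAF155) and SMARCC2 (BAF170) are paralogous scaffold proteins on which the complexes assemble. SMARCC1 (chromosome 3, 47585272 to 47782106) was at 37.0 and 38.7 FPKM in the controls and at 44.9 and 41.0 with CHD7 shRNA-2. It had the highest log2 fold change of the 10, at 0.15 (SE 0.076, adjusted p = 0.236 from edgeR), and its groups did not overlap. Without CHD7 shRNA-2 replicate 1 it was 0.08, below the 0.10 of SMARCA4. SMARCC2 (chromosome 12, 56162983 to 56189567) was at 42.4 and 44.5 FPKM in the controls and at 42.0 and 39.0 with CHD7 shRNA-2. Its groups did not overlap in the other direction, with a log2 fold change of -0.15 (SE 0.076, adjusted p = 0.204 from edgeR). Neither difference passed the test.

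SMARCD1 (BAF60A) links the core to transcription factors, and SMARCB1 (SNF5, BAF47) helps the complex to grip the nucleosome. SMARCD1 (chromosome 12, 50084972 to 50100712) was at 40.8 and 42.3 FPKM in the controls and at 38.2 and 36.9 with CHD7 shRNA-2. The CHD7 shRNA-2 libraries were both lower, and the log2 fold change was -0.20 (SE 0.078, adjusted p = 0.0958 from edgeR). SMARCB1 (chromosome 22, 23786931 to 23838008) was at 59.1 and 55.7 FPKM in the controls and at 53.0 and 54.3 with CHD7 shRNA-2. Its groups did not overlap either, with a log2 fold change of -0.14 (SE 0.083, adjusted p = 0.305 from edgeR).

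ARID1A (BAF250A) and ARID1B (BAF250B) are the alternative DNA-binding subunits of canonical BAF. ARID1A (chromosome 1, 26693236 to 26782110) was at 7.09 and 6.62 FPKM in the controls and at 6.82 and 6.43 with CHD7 shRNA-2. In FPKM the groups overlapped and in TMM-scaled CPM they did not, and the log2 fold change was -0.09 (SE 0.088, adjusted p = 0.555 from edgeR). ARID1B (chromosome 6, 156776020 to 157210779) was at 8.78 and 8.59 FPKM in the controls and at 8.17 and 7.49 with CHD7 shRNA-2. Both CHD7 shRNA-2 libraries were below both controls, with a log2 fold change of -0.22 (SE 0.088, adjusted p = 0.108 from edgeR), the lowest of the 10.

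ARID2 (BAF200) and PBRM1 (BAF180, with several bromodomains) define PBAF, the form with which CHD7 is known to work. ARID2 (chromosome 12, 45729665 to 45908040) was at 7.85 and 9.33 FPKM in the controls and at 8.97 and 8.07 with CHD7 shRNA-2. The CHD7 shRNA-2 values lay between the control values, and the log2 fold change was -0.08 (SE 0.094, adjusted p = 0.652 from edgeR). PBRM1 (chromosome 3, 52545352 to 52685917) was at 7.84 and 8.87 FPKM in the controls and at 8.96 and 7.20 with CHD7 shRNA-2. The control values lay between the CHD7 shRNA-2 values, with a log2 fold change of -0.09 (SE 0.098, adjusted p = 0.614 from edgeR). For ARID2 and PBRM1 the direction rested on single libraries: without control replicate 2 the log2 fold change of ARID2 was 0.06, and without CHD7 shRNA-2 replicate 2 that of PBRM1 was 0.04. With an interval of -0.27 to 0.12 for ARID2 and of -0.29 to 0.11 for PBRM1, changes larger than these bounds lay outside the 95% intervals of both PBAF subunits.

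**Figure D2:**
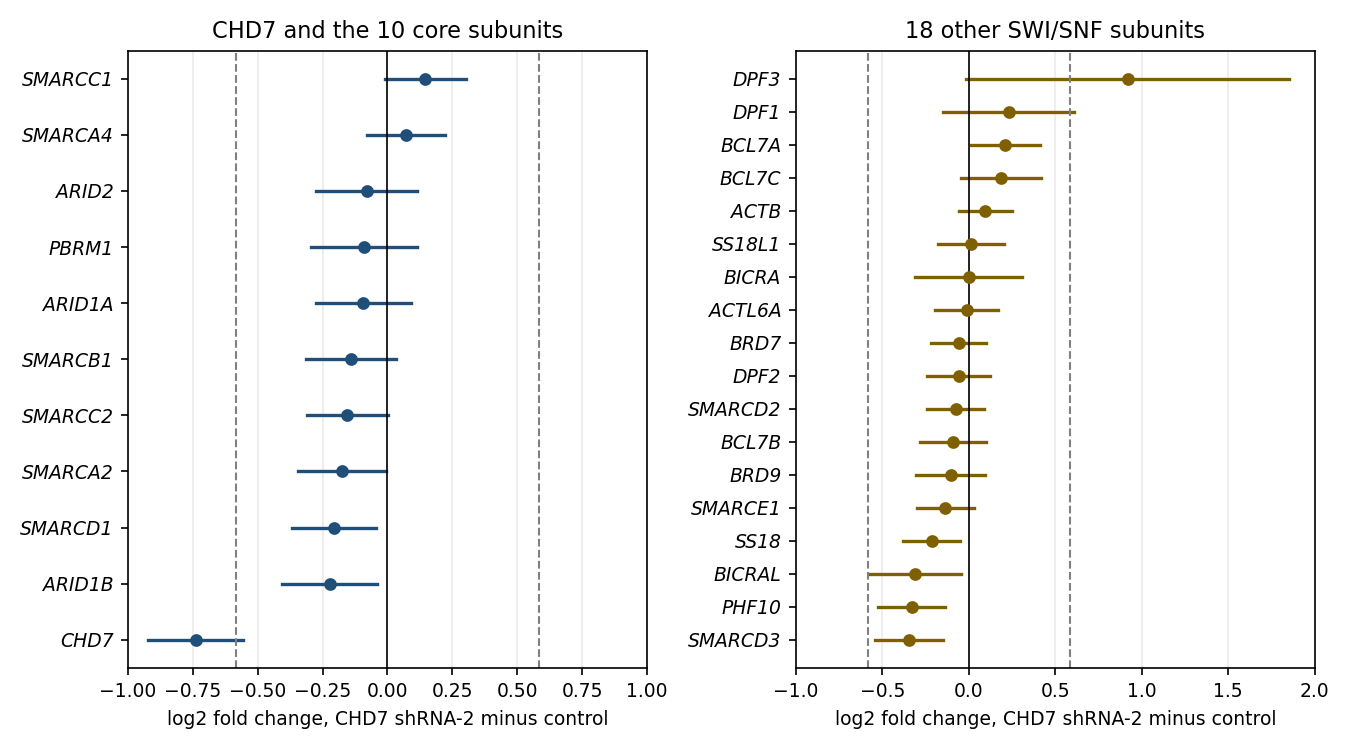
Log2 fold change of CHD7 shRNA-2 minus control (horizontal axis) with its 95% interval from edgeR (bars), for CHD7 and the 10 core subunits (left) and for the 18 other SWI/SNF subunits tested (right), with dashed lines at a 1.5-fold change. All 10 core intervals lie inside the dashed lines, from -0.40 at the lowest to 0.30 at the highest; the DPF3 interval on the right is the widest.

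Short words in the 3′ UTR were looked at because the word AGCTATT, together with the word GAAGCTA and also the word GCTATTA, had stood out in earlier work on these libraries, in genes lower with CHD7 shRNA-2. In the 3′ UTR of the GENCODE 29 transcript with the longest coding sequence, on the transcript strand only, 18.9% of 11691 tested genes held any of these words. Of the 158 genes called lower that have a 3′ UTR, 64.6% did, but the words came from such genes, so that share is no test. AGCTATT and GCTATTA share the letters GCTATT. ARID1A was the only core subunit of the 10 with a word by this choice of transcript, and SMARCE1 and BICRAL were those of the 18 other subunits. With the longest annotated 3′ UTR of each gene, 5 of the 10 core subunits (ARID1A, ARID1B, SMARCA2, SMARCA4 and PBRM1) held a word, against 22.4% of tested genes. Of the other subunits, SMARCE1, BICRAL and PHF10 held a word by this choice. The sites of ARID1A, PBRM1, SMARCE1, BICRAL and PHF10 are shown 5′ to 3′ with the word in capitals, since they put the matched bases beside the fold changes.
ARID1A: gagacacAGCTATTtaatctc
PBRM1: tttaataAGCTATTtcaattt
SMARCE1: ggtaaatAGCTATTtcacatt
BICRAL: acggataGAAGCTActtttta
PHF10: ggaaatcAGCTATTcaacact
PHF10, second site: tgctgagAGCTATTAggatgag
These sites lie in GRCh38 at chr1:26781725-26781745 (plus strand), chr3:52547892-52547912 (minus strand), chr17:40625796-40625816 (minus strand), chr6:42865855-42865875 (plus strand), chr6:169708691-169708711 and chr6:169708144-169708165 (both minus strand), each in an annotated 3′ UTR. The genes carrying them had log2 fold changes of -0.09 for ARID1A, -0.09 for PBRM1, -0.14 for SMARCE1, -0.31 for BICRAL and -0.33 for PHF10, of which PHF10 passed the adjusted p in edgeR. The log2 fold changes of ARID1B, SMARCA2 and SMARCA4, whose sites are not shown, were -0.22, -0.18 and 0.07. Like these, PBRM1 and PHF10 held a word only in their longest 3′ UTR. By the longest coding sequence, the median log2 fold change was -0.09 for all tested genes with a word and 0.02 for those without, while among the 10 core subunits it was -0.09 for ARID1A and -0.14 for the 9 without. The words came from genes lower in these same libraries, so the medians over all tested genes are no test either.

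Ratios between subunits within a library do not depend on how libraries are scaled. The ratio of SMARCC1 to SMARCC2 FPKM was 0.872 and 0.869 in the control libraries and 1.07 and 1.05 in the CHD7 shRNA-2 libraries. By FPKM, SMARCC2 was thus the higher of the pair in both controls and SMARCC1 in both CHD7 shRNA-2 libraries. The difference in log2 ratio was 0.29, against SDs of 0.0029 and 0.016 (n = 2 each). Which gene is the higher depends on the gene lengths used. In CPM, not scaled to length, the ratio was 1.024 and 1.02 in the controls and 1.275 and 1.241 with CHD7 shRNA-2. The ratio of SMARCA4 to SMARCA2 was 2.14 and 1.97 in the controls and 2.34 and 2.62 with CHD7 shRNA-2, a log2 difference of 0.27 with SDs of 0.082 and 0.11. The ratio of ARID1A to ARID1B was 0.807 and 0.771 in the controls and 0.835 and 0.859 with CHD7 shRNA-2, a log2 difference of 0.10.

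For these 3 pairs the groups did not overlap, and the exact two-sided permutation p was 0.333 for each, the smallest that 2 libraries against 2 can give. How often the ratios of other gene pairs separate in this way was not computed. For single genes, the groups did not overlap in CPM for 53.7% of those tested. The permutation test therefore cannot reach 0.05 here, and its p says nothing on whether these ratios changed. The 5 ratios computed also included SMARCD1 to SMARCD2, at 0.692 and 0.759 in the controls and 0.706 and 0.651 with CHD7 shRNA-2 (exact permutation p = 0.667), where the groups overlapped in FPKM but not in CPM. The ratio of the PBAF subunit PBRM1 to the canonical BAF subunit ARID1A was 1.11 and 1.34 in the controls and 1.31 and 1.12 with CHD7 shRNA-2, so the groups covered almost the same range (exact permutation p = 1.0).

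**Figure D3:**
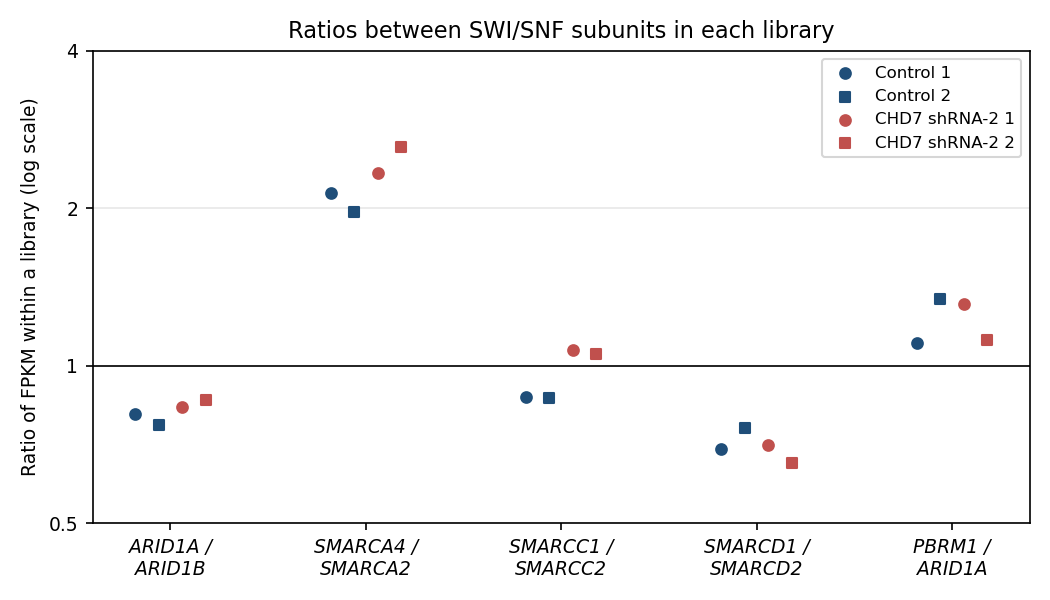
Ratio of FPKM within each library (log axis, base 2) for 5 pairs of subunits, with 1 point per library and a line at a ratio of 1. The SMARCC1 to SMARCC2 points lie at 0.869 and 0.872 in the controls and at 1.05 and 1.07 with CHD7 shRNA-2, on opposite sides of the line. In CPM, not scaled to gene length, this ratio is above 1 in every library.

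Dividing the counts of a gene by its FPKM gives the effective transcript length that the authors' estimate implied. It moves when the mix of long and short isoforms moves. An effective length can be shorter than the transcript and can also vary with the fragment length of a library, which was not examined. For ARID1A the implied length was 8426 and 8414 bases in the controls and 8416 and 8431 bases with CHD7 shRNA-2, near the 8583 bases of its longest annotated transcript. PBRM1 was at 7652 and 7556 bases against 7554 and 7688, near a transcript of 7523 bases that carries the site shown above, rather than the 5145 bases of the transcript with its longest coding sequence. SMARCB1 was at 1561 and 1557 bases against 1556 and 1565. These lengths were nearly the same in all libraries. In control 1, PHF10 had 724.21 counts at 30.42 FPKM and SMARCB1 1451 at 59.08, so their implied lengths were close. The PHF10 transcript that carries its sites has 4395 bases. SMARCE1 had 2075 counts at 58.21 FPKM and SMARCD1, at 3206 bases, 2056 at 40.76, so SMARCE1 was implied to be shorter. The SMARCE1 transcript with its site has 6196 bases. Use of the 3′ UTRs with sites was not tested.

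Scaled to the median gene of each library, the largest differences of the 10 in either direction were those of ARID1B, at -2.17% in the CHD7 shRNA-2 libraries, and SMARCA2, at 1.91%, each with groups that did not overlap and an exact permutation p of 0.333. Among 6350 genes with at least 500 counts in every library, 8.66% and 10.4% had a larger absolute change than ARID1B and SMARCA2. For ARID2, 1 CHD7 shRNA-2 library stood at 7921 bases and the other at 8273, with 8169 and 8258 in the controls. In CHD7 the implied length went from 10469 and 10514 bases to 10002 and 9499, a change of -7.22% that 1.06% of those genes exceeded. No core subunit came near that size.

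Beyond the core, 18 of the 19 other subunits looked up were listed and tested; ACTL6B, the neuronal actin-like subunit, is not listed. None of the 18 was called in edgeR, against 2.88% of all genes tested, and none in DESeq2, against 219 of 11955 genes. None called among so few genes is near these shares. With no fold threshold 2 of the 18 passed in edgeR, against 11.5% of all genes tested. Both were lower, as were 6.54% of all genes. At an unadjusted p below 0.05, 5 of the 18 passed in edgeR, against 25.4% of all genes. Their median log2 fold change was -0.06, with 12 negative and 6 positive. ACTB, the actin subunit that cells also use in the cytoskeleton, was the highest by FPKM at 1139.0 to 1376.4, and DPF3 the lowest at 0.12 to 0.38.

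SMARCD3 (BAF60C), the paralogue of SMARCD1 best known from heart and muscle, fell from 55.0 and 51.0 FPKM in the controls to 38.4 and 47.4 with CHD7 shRNA-2. Both CHD7 shRNA-2 libraries were below both controls, though far apart from each other, and the log2 fold change was -0.35 (SE 0.096, adjusted p = 0.0197 from edgeR). PHF10 (BAF45A), a PBAF subunit with PHD fingers, fell from 30.4 and 30.7 FPKM to 26.6 and 23.4, with a log2 fold change of -0.33 (SE 0.093, adjusted p = 0.0216 from edgeR). SMARCD3 no longer passed without control replicate 1 (adjusted p = 0.167 in edgeR) or CHD7 shRNA-2 replicate 1 (0.175, with a log2 fold change of -0.21), nor in DESeq2 (0.0528) or with the replicate block (0.0738). PHF10 no longer passed without control replicate 1 (adjusted p = 0.0944 in edgeR), control replicate 2 (0.160) or CHD7 shRNA-2 replicate 2 (0.162), nor in DESeq2 (0.0989) or with the replicate block (0.107). The other subunits of smallest p were SS18 (-0.22, adjusted p = 0.0889 from edgeR), BICRAL (-0.31, adjusted p = 0.129) and BCL7A (0.21, adjusted p = 0.170). SS18 is shared by canonical and non-canonical BAF, BICRAL belongs to non-canonical BAF, and BCL7A is a small subunit found in each form.

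Grouped by complex, the PBAF-only subunits PBRM1, ARID2, BRD7 and PHF10 had log2 fold changes of -0.09, -0.08, -0.06 and -0.33, with a median of -0.08. The canonical BAF-only subunits ARID1A, ARID1B, DPF1, DPF2 and DPF3 had a median of -0.06, and BRD9, BICRA and BICRAL of non-canonical BAF a median of -0.11. The 16 tested subunits of more than 1 form had a median of -0.08, against 0.00 over all genes tested. DPF3 had only 12 and 6 counts in the controls and 22 and 13 with CHD7 shRNA-2, and its interval, from -0.01 to 1.85, was too wide to place it.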

How the data were processed

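RNA-seq was done on 4 libraries, 2 per group, made with beads that capture polyadenylated RNA, and the group and replicate number were read from the sample titles. The authors deposited expected counts (estimated counts, not normalized) and FPKM values (per gene length and library depth). Bowtie2, RSEM, DESeq2 and hg38 are named in the submitters' processing notes; versions, annotation, strandedness and filters are not given in the sources used here. Gene locations are from GENCODE 29 (GRCh38). Implied lengths of SMARCC2 and PBRM1 exceed their longest coding GENCODE 29 transcripts. That of SMARCC1, at 5535 to 5591 bases, is below the 6375 bases of its only coding transcript there. The coding transcripts of that annotation do not account for these lengths, on which the FPKM ratio of SMARCC1 to SMARCC2 rests.

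Counts were rounded, filtered with filterByExpr and scaled by TMM, and 11955 of 15357 genes entered the quasi-likelihood test of edgeR 4.0.16 (R 4.3.3) with Benjamini-Hochberg adjustment over all of them. CPM values use TMM-scaled library sizes. Called means at least 1.5-fold with an adjusted p below 0.05, the study's thresholds. SEs come from the F statistic, and the 95% intervals are not adjusted for the number of genes. The biological coefficient of variation was 0.0579. On counts simulated with about this same variation for every gene, the intervals covered the true value for 95.5% of 11938 genes. That setting leaves out differences in variation between genes, so it does not test the intervals in the real libraries. DESeq2 1.42.0 and limma 3.58.1 were alternatives. On average over genes, replicates differed beyond sampling noise (mean chi-square per gene 3.86 in the controls and 5.86 with CHD7 shRNA-2).

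All 40 count values of the core subunits were whole numbers. In their transcripts with the longest coding sequence, the share of 50-base stretches that also occur in another gene's transcripts, on either strand, was 6.03% for ARID1B (shared most with AL355297.4), 2.95% for SMARCC2 (MYL6), 1.94% for PBRM1 (SMIM4), 0.155% for SMARCA2 and 0 for the other 6. AL355297.4, MYL6 and SMIM4 lie on the opposite strand, as does DERL3 by SMARCB1. Without strand, such reads cannot be told apart.

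The members and lists were chosen with earlier results of these data known. The genes named are the 10 members, CHD7, and of 19 other subunits those past the adjusted p, the 5 of smallest p and the highest and lowest by FPKM; subunits listed by complex or by a 3′ UTR word, ATRX and CHD1L were named after their values were seen. An item of the marker lists is not reported here.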

Additional observations from a re-analysis of the deposited data

How the results depend on the processing

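Under 14 alternatives, no core subunit was called in any, and none of the 18 other subunits was. Of all genes, between 23 of 15067 tested (limma without a filter) and 423 of 11955 (crossed block) were called. None called among so few subunits is near these shares. With no fold threshold in edgeR, 2 of the other subunits passed, against 11.5% of all genes tested. In 8 of the 10 core subunits the direction held throughout. The alternatives were edgeR scaled by library totals or by the size factors of DESeq2, DESeq2 itself, the replicate block, a laxer and a stricter count filter, limma on log2(FPKM + 1) or log2(FPKM + 0.1) with a mean FPKM of at least 1, limma without that filter, leaving out each library, and a crossed block. CHD7 stayed lower, but its log2 change was below the 1.5-fold threshold in limma, at -0.51 with log2(FPKM + 1) (adjusted p = 0.0054, or 0.104 without a filter) and -0.58 with log2(FPKM + 0.1). Leaving out single libraries moved ARID2 between -0.21 and 0.062 and PBRM1 between -0.24 and 0.043; a fit with a lone library assumes that it varies like the others. Scaled over genes with at least 100 counts, the log2 change in implied length was 0.0020 for ARID1A, against -0.0013, and -0.0056 for SMARCC2, against -0.0089.

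The replicate numbers are shared by the groups without a stated meaning, and same-numbered libraries deviated with a correlation of -0.198 across genes, so they were not treated as pairs. With the replicate block, 329 genes were called against 344, 0 core subunits were called, and their lowest adjusted p was 0.373 in edgeR, against 0.0958 without the block. With the numbers crossed, a setting chosen after seeing the data, 423 genes and no SWI/SNF subunit were called, while 6 of the 10 core subunits and 7 of the other 18 had an adjusted p below 0.05, as had 31.4% of all genes. The counts of all genes called ran from 23 in limma without a filter, 141 without a filter in edgeR, 172 and 257 in limma with one and 219 in DESeq2 to 423. On average over genes the replicates differed beyond sampling noise. That average does not show for how many genes depth was the limit, which was not tested. DPF3 is a gene of few counts.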

Other observations

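The study's list of ATP-dependent remodeller genes, without SMARCA4, SMARCA2 and CHD7, holds 34 genes, of which 30 were tested; ACTB and ACTL6A are also SWI/SNF subunits. None was called in edgeR, against 2.88% of all genes tested. At an unadjusted p under 0.05, 5 passed in edgeR, against 25.4% of all genes. The groups did not overlap for 9 of the 30, 5 of them lower and 4 higher, against 53.7% of all genes. Their median log2 fold change was -0.01, with 14 positive and 16 negative. Without the fold threshold, 2 of the 30 passed an adjusted p under 0.05 in edgeR, against 11.5% of all genes tested. Both were lower with CHD7 shRNA-2, as were 6.54% of all genes. ATRX, which deposits histone variants in heterochromatin with DAXX, fell from 74.4 and 84.8 CPM to 56.2 and 57.7, a log2 fold change of -0.48 (SE 0.089, adjusted p = 8.1e-04 from edgeR). CHD1L, a remodeller that is recruited to DNA damage, fell from 133.0 and 136.3 CPM to 108.7 and 106.5, a log2 fold change of -0.32 (SE 0.078, adjusted p = 0.0082 from edgeR). Both were named after their values were seen.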
